A study of Mus musculus with 3 samples.

Results

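The hairpins Mir99a, Mir100, Mir125b-1 and Mir125b-2, 4 of the 203 mouse miRNA hairpins placed in these libraries, were chosen by name. They are the paralogs of Mir99b and Mir125a, which lie together on chromosome 17. Small RNA was sequenced from MIN6 cells, an established line of insulin-secreting beta cells derived from a mouse insulinoma. All 3 libraries are biological replicates of the same unmodified cells in medium with 25 mM glucose, so no conditions can be compared, and values are summarised by their mean and SD over these libraries. The libraries hold 9269795, 10816006 and 10218743 mapped reads in replicates 1, 2 and 3, and levels are given as reads per 1000000 mapped reads (RPM).

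A miRNA is cut from a hairpin precursor, first by Drosha and then by Dicer, and either arm of the hairpin (5p or 3p) can be loaded into an Argonaute protein. It recognizes target mRNAs mainly through its seed, bases 2 to 8, so a shift of the 5′-start changes the seed, and such a shifted form is called a 5′-isomiR. The miR-99/100 family, known for repressing the kinase mTOR, and the miR-125 family, the relatives of the nematode lin-4, are encoded next to let-7 in conserved clusters that are often transcribed from a common long RNA. Paralogous miRNAs with 1 seed share most predicted targets, so their levels relative to each other decide how much of the family's total each locus contributes.

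The mature sequences of the 5p arms (RefSeq, GRCm38.p6) are shown because the family members differ by few bases, and capitals mark the seed.
miR-99a-5p: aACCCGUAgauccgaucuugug
miR-100-5p: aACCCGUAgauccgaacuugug
miR-99b-5p: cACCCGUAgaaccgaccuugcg
miR-125b-5p: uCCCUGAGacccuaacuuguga
miR-125a-5p: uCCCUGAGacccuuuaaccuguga
miR-125b-5p+1: cCCUGAGAcccuaacuuguga
The first 3 share a seed, and miR-100-5p differs from miR-99a-5p by the single change U16A, counted from the 5′ base. miR-125b-5p is encoded identically in Mir125b-1 and Mir125b-2 and shares its first 13 bases with miR-125a-5p. The last line is the 5′-isomiR of miR-125b-5p that starts 1 base later, read from the RefSeq hairpin of Mir125b-1, and its shifted seed occurs in 0 of the 1738 mature sequences of the table. The seed of miR-99a-5p belongs to 3 mature names of the table and that of miR-125b-5p to 5. The further ones, miR-351-5p, miR-6367 and miR-6394, come from hairpins that were not placed in these libraries, and their levels were not measured.

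The members lie in 2 clusters, and coordinates of reads are on mm9, the build named in the submitters' processing notes. On chromosome 16, miR-99a-5p spans chr16:77599185-77599206 and the Mir125b-2 5p arm chr16:77646524-77646545, both on the plus strand, with Mirlet7c-1 between them. The first base of each span given here is the reference start of the reads. On chromosome 9, miR-100-5p spans chr9:41339520-41339541 and the Mir125b-1 5p arm chr9:41390023-41390044, also on the plus strand, with Mirlet7a-2 between them. In the GENCODE annotation of GRCm38, a later build, Mir99a (chr16:77598936-77599000) and Mir125b-2 (chr16:77646273-77646343) lie in introns of the long noncoding gene Mir99ahg, with Mir99a antisense to an intron of Gm11146 and Mir125b-2 overlapping an exon of C130023A14Rik. Mir100 (chr9:41531425-41531504) and Mir125b-1 (chr9:41581926-41582002) lie in introns of the noncoding genes 3110039I08Rik and Gm49317 on the same strand, with Mir100 antisense to an exon of Gm48742 and Mir125b-1 inside an exon of Gm28119. The alignments carry no miRNA names, so hairpins were placed by the bases that recorded mismatches exclude. Mir125b-2 and Mir125b-1 were placed with 49.1 and 35.2 bits of sequence information, above the threshold of 20. Mir99a reached 18.9 bits and was accepted because its distance of 721 bases to Mirlet7c-1 equals the annotated one. Mir100 has too few mismatched reads to be placed by sequence (2.66 bits), and it was located by 3 alignments whose reads were divided between it and Mir99a, at the annotated distance of 5291 bases from Mirlet7a-2.

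Among the hairpins located here, both families were represented in MIN6 cells mainly by the paralogs on chromosome 17. Among the 335 arms listed for placed hairpins, miR-99b-5p ranked 3, at 31246 ± 4580 RPM, and miR-125a-5p ranked 14, at 6413 ± 550 RPM (SD, n = 3). The highest arm of that list was miR-182-5p at 37073 RPM, although the placed Mir375 hairpin held 365704 ± 19121 RPM (SD, n = 3). The list thus lacks most Mir375 reads, and all ranks given here are positions within it. miR-125b-5p, with the reads of both hairpins summed at the reference start, ranked 112 at 148 ± 17.9 RPM (SD, n = 3), and miR-99a-5p ranked 168 at 53.1 ± 5.78 RPM (SD, n = 3). miR-100-5p ranked 290 and was near absent, at 0.900 ± 0.225 RPM (SD, n = 3).

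miR-125b-5p was found at 158, 158 and 127 RPM in replicates 1, 2 and 3. These levels rest on 1463, 1709 and 1297 reads, and the lowest and highest bounds of their 95% Poisson intervals, which cover counting error only, are 120 and 166 RPM. Replicate 3 was lower than the others by more than counting error.

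miR-99a-5p was found at 56.3, 56.6 and 46.4 RPM, from 521.5, 612.5 and 474.5 reads, where fractions arise because a read that aligned equally well to several loci was divided among them. Replicate 3 was again the lowest, and its interval of 42.3 to 50.8 RPM lies below that of replicate 1, which starts at 51.6 RPM. miR-125b-5p exceeded miR-99a-5p by 2.81, 2.79 and 2.73 times in replicates 1, 2 and 3, a mean ratio of 2.78 ± 0.0381 (SD, n = 3). The ratio within a library thus varied less between replicates than either level did.

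miR-100-5p was represented by 7.5, 12.5 and 7.5 reads, or 0.809, 1.16 and 0.734 RPM. The 95% Poisson intervals of the replicates, together from 0.338 to 1.94 RPM, overlap throughout. Reads of miR-99a-5p were 60.6 ± 10.5 times as many (SD, n = 3), so that miR-100-5p amounted to 1.69% of miR-99a-5p on average. Because U16A is the only difference, a miR-99a-5p read with this sequencing error would be recorded as miR-100-5p. At the other U bases inside miR-99a-5p, a mismatching A was recorded in 2 of 6972.5 base readings, or 0.0287%. Of the 27.5 miR-100-5p reads, 3 carried U11A and U21C together, the bases that miR-99b-5p has at these positions, and miR-99b-5p exceeded miR-99a-5p by 587 ± 24.5 times (SD, n = 3). The part of reads from either relative in the miR-100-5p reads was not tested further.

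The 3p arms, the usual passenger strands, also differed between the hairpins. miR-125b-2-3p was found at 29.3, 28.1 and 27.01 RPM at its reference start, with a mean of 28.2 ± 1.17 RPM (SD, n = 3). This arm marks the chromosome 16 hairpin, since its sequence differs from that of miR-125b-1-3p.
miR-125b-2-3p: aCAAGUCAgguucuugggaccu
miR-125b-1-3p: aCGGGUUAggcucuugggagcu
miR-99a-3p: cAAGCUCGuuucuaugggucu
For miR-125b-1-3p, 0 reads were recorded in every library within 3 bases of the reference start, a count that still allows 3 reads per library (0.324 RPM in replicate 1 and 0.277 RPM in replicate 2). For miR-100-3p, 0 reads were recorded as well, with the same limits. miR-99a-3p was found with 8, 10 and 16 reads, or 1.12 ± 0.389 RPM (SD, n = 3), and the intervals of its levels overlap with those of miR-100-5p. The 5p reads of Mir99a were 66.3, 62.6 and 30.4 times as many as its 3p reads, and the lowest ratio was that of the library with 16 of the 3p reads. The summed miR-125b-5p reads of both hairpins were 5.63 ± 0.789 times as many as the miR-125b-2-3p reads (SD, n = 3), which compares with 248 ± 16.4 for the arms of Mir125a and 443 ± 79.5 for those of Mir99b. In all 3 libraries the ratio was lowest for the miR-125b arms.

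**Figure D1:**
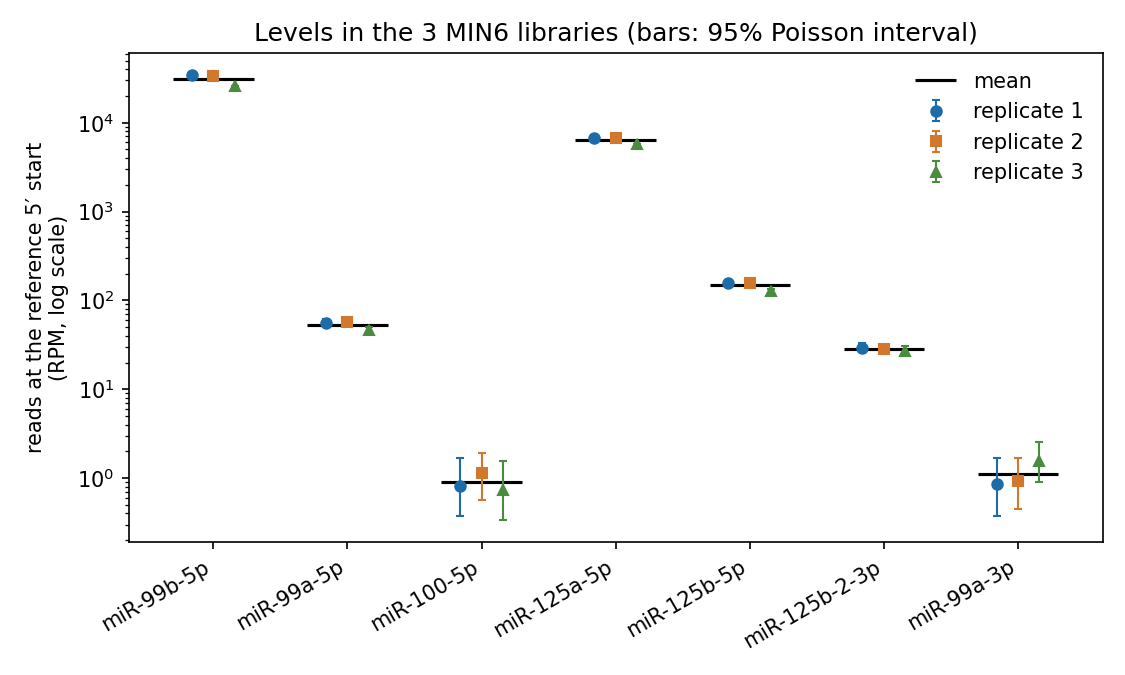
Reads at the reference 5′-start in RPM (log scale) for the members and their paralogs in each of the 3 libraries. Points are libraries, black lines are means and bars are 95% Poisson intervals. miR-99b-5p and miR-125a-5p lie at 31246 and 6413 RPM, miR-125b-5p and miR-99a-5p at 148 and 53.1 RPM, and miR-100-5p and miR-99a-3p near 1 RPM.

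Ordered by level, the forms of these hairpins run from miR-125b-5p over the 5′-isomiR miR-125b-5p+1 (101, 101 and 69.2 RPM), miR-99a-5p and miR-125b-2-3p, followed by the starts of that 3p arm 2 and 3 bases earlier (7.32 ± 0.444 and 6.28 ± 0.935 RPM, SD, n = 3), to miR-99a-3p and miR-100-5p. Among these forms the libraries of neighbours do not overlap, except for the pair of earlier 3p starts and the last pair. Among arms with at least 100 reads in every library, the levels most like those of miR-99a-5p were those of miR-382-5p, miR-3102-3p and miR-194-5p, with root mean square differences of 0.08, 0.15 and 0.16 on the log2 RPM scale over the 3 libraries. For miR-125b-5p they were miR-15b-5p, miR-212-5p and miR-130b-5p, at 0.05, 0.09 and 0.10. None of these is encoded in the clusters described here.

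The question which locus supplies each family was addressed by ratios within a library, to which depth and scaling do not contribute. These are ratios of reads, and whether the compared sequences were captured equally in the libraries was not tested. miR-99b-5p reads were 597, 583 and 550 times as many as those of miR-99a-5p and miR-100-5p together, a mean of 577 ± 24.1 (SD, n = 3). miR-125a-5p reads were 42.4, 42.8 and 45.5 times as many as miR-125b-5p reads, a mean of 43.6 ± 1.70 (SD, n = 3). With all starts within 3 bases, which adds reads of miR-125b-5p that start 1 base later, this ratio was 27.2. The direction was the same in 3 of 3 libraries for both families, and the chromosome 17 member was ahead by a larger factor in the miR-99/100 family. With 3 libraries a two-sided exact sign-flip test cannot give a p below 0.25, so none is given.

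Within the clusters, the let-7 hairpins held more 5p reads than their neighbours. These reads are shared with other let-7 copies, so they do not measure what the single locus supplies. At Mirlet7c-1, between Mir99a and Mir125b-2, the 5p arm held 5434 ± 1037 RPM of divided reads (SD, n = 3). At Mirlet7a-2, between Mir100 and Mir125b-1, it held 2144 ± 260 RPM of divided reads (SD, n = 3). The 3p arms of let-7 differ between copies and are closer to a measure of the single locus. let-7a-2-3p had 0 reads in every library. let-7c-1-3p had 3, 0 and 1, fewer in every library than miR-99a-3p or miR-125b-2-3p of the same cluster. The chromosome 9 cluster thus had 0 reads on the 3p arms of all of Mir100, Mirlet7a-2 and Mir125b-1, whereas let-7e-3p of the chromosome 17 cluster reached 14.5 ± 1.07 RPM (SD, n = 3).

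**Figure D2:**
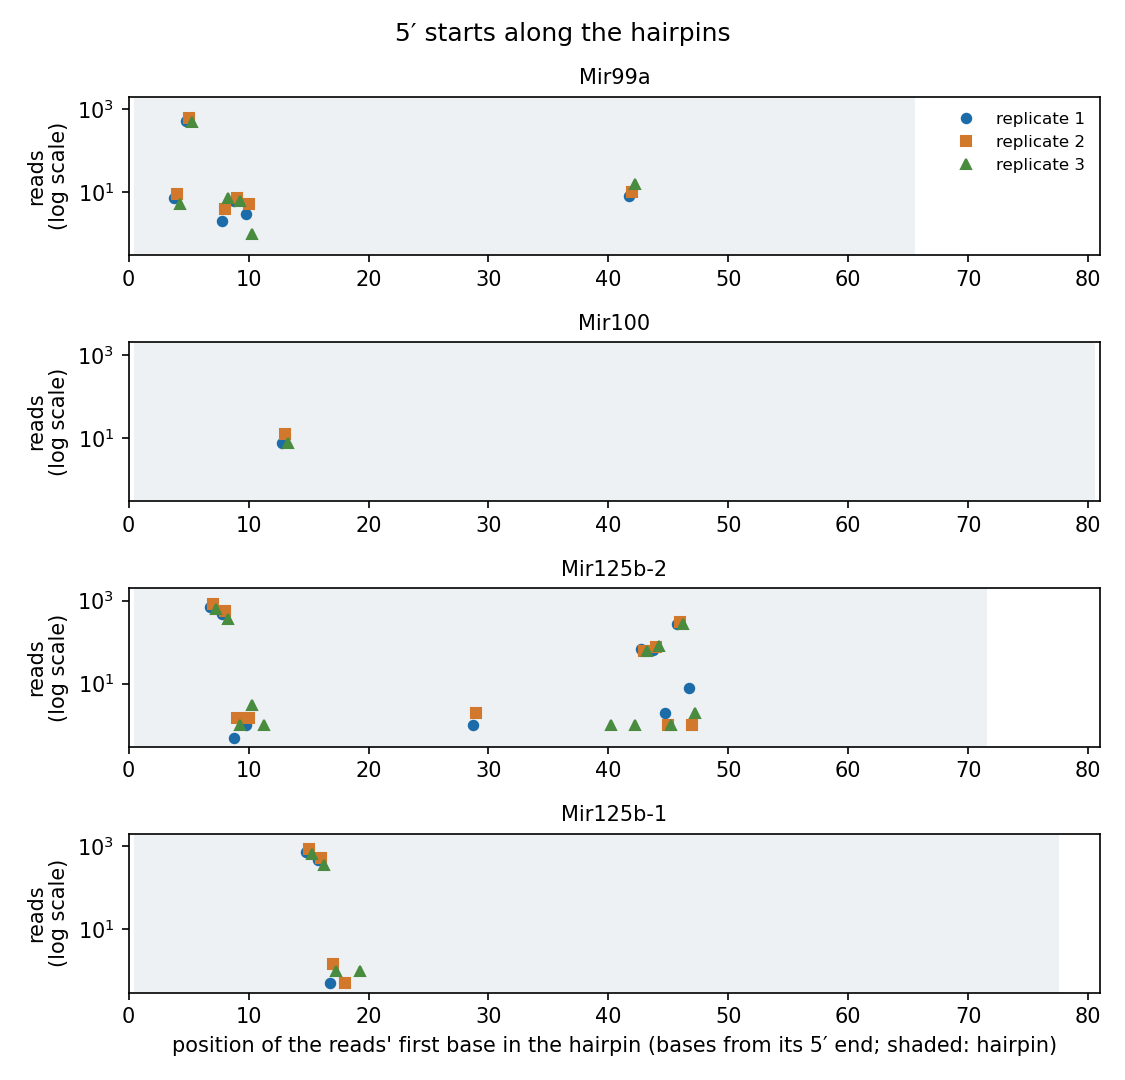
Reads (log scale) by the position of their first base along each hairpin, counted from its 5′ end, with a symbol for each library and the extent of the hairpin shaded. Only starts with reads are drawn. Mir99a shows a main 5p start of 521.5, 612.5 and 474.5 reads, Mir100 a single start of at most 12.5 reads, and both Mir125b hairpins show a pair of adjacent 5p starts, while 3p reads appear at Mir125b-2 and not at Mir125b-1.

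The 5′-starts of miR-125b-5p differed from those of miR-125a-5p. Of the reads within 3 bases of the reference start, 61.0%, 60.8% and 64.6% began at the reference start of miR-125b-5p, and 38.9%, 39.0% and 35.2% began 1 base later. The later start, miR-125b-5p+1, thus held 37.7% ± 2.18 of the arm (SD, n = 3), with 95% Wilson intervals between 33.1% and 40.9%. At miR-125a-5p the same shift held 0.283% of reads or less in each library, with intervals up to 0.327%. The ratio of shifted to reference reads was 0.638, 0.641 and 0.545 for miR-125b-5p and 0.00284, 0.00261 and 0.00276 for miR-125a-5p, a difference of 223 ± 24.1 times (SD, n = 3). The intervals of both arms were separate in every library.

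miR-99a-5p and miR-99b-5p had nearly uniform starts. For miR-99a-5p, 97.9% ± 0.385 of the arm's reads began at the reference start (SD, n = 3), and for miR-99b-5p 99.7% ± 0.00556 did. All 27.5 reads of miR-100-5p and all 34 reads of miR-99a-3p began at the reference start, and with so few reads the 95% Wilson intervals of this share reach down to 67.6% in the libraries with the fewest.

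miR-125b-2-3p was heterogeneous as well. The reference start held 66.6% ± 1.73 of its reads, the start 2 bases earlier 17.4% ± 1.69 and the start 3 bases earlier 14.8% ± 1.44 (SD, n = 3). The reference start and these earlier starts were in the same order in replicates 2 and 3, while in replicate 1 the 2 earlier starts were about equal, with 65 and 68 reads. Among the arms of the paralogs, miR-125a-3p was also heterogeneous, with 80.5% ± 1.60 of reads at the reference and 18.8% ± 1.13 at the base after it (SD, n = 3). At the Mir125b-2 hairpin, shifted 5′-starts were recorded on both arms, later on the 5p arm and earlier on the 3p arm. Most of the later 5p reads were divided with Mir125b-1, whose 5p arm is identical, so that shift cannot be assigned to either hairpin.

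**Figure D3:**
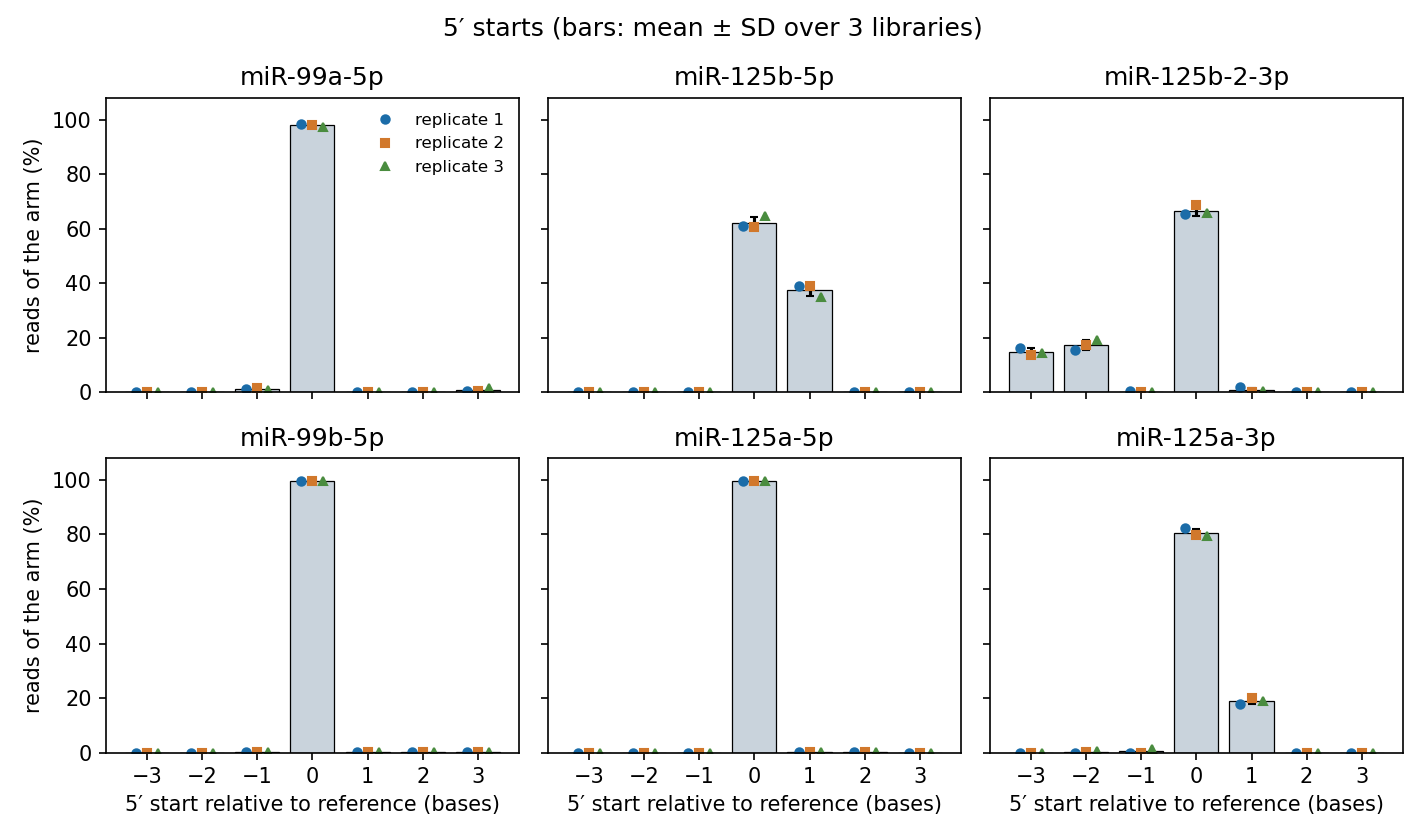
Share of the reads of an arm (%) by 5′-start relative to the reference start (bases), for 3 arms of the members in the upper row and 3 arms of the chromosome 17 paralogs in the lower row. Bars are means, error bars SD over 3 libraries and symbols the libraries. miR-125b-5p has 62.1% of reads at the reference and 37.7% at the next base, whereas miR-99a-5p, miR-99b-5p and miR-125a-5p have over 97% at the reference.

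Because the 5p arms of Mir125b-1 and Mir125b-2 are identical, most miR-125b-5p reads cannot be assigned to a locus. At the reference start 750.7, 873.8 and 662.5 divided reads were recorded at Mir125b-1 and 712.7, 834.8 and 634.5 at Mir125b-2, and the near equality follows from the division of shared reads. Only 2.62% ± 0.333 of the reads had no identical alignment of equal count at the other hairpin (SD, n = 3). Among these, 111 reads were recorded at Mir125b-1 and 6 at Mir125b-2, all libraries together. Nearly all of them were exact reads of 23 nt, 101 at Mir125b-1 and 4 at Mir125b-2, which end at the first base that differs between the hairpins (U23G, Mir125b-1 to Mir125b-2). A U at this position can come from the Mir125b-1 hairpin or be added to a 22-nt read from either hairpin, and these cannot be told apart.

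At the later start, 3.60% ± 0.760 of the reads had a single hairpin (SD, n = 3), with 34 reads at Mir125b-1 and 67 at Mir125b-2. Here the exact reads of 22 nt, which again end at position 23 of the reference numbering, numbered 28 at Mir125b-1 and 7 at Mir125b-2. A further 56 reads of 23 nt at Mir125b-2, against 4 at Mir125b-1, matched at that base and ended with a mismatching U. The reads with a single hairpin thus lay mostly at Mir125b-1 for the reference form and mostly at Mir125b-2 for the later form. They are selected by their 3′ ends and are a small share, so they give no estimate of what each hairpin supplies to the whole.

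The forms also differed in length. miR-99a-5p was read mostly as 21 nt, 1 base shorter than its RefSeq sequence, at 59.3% ± 1.72, followed by 22 nt at 31.0% ± 3.01 (SD, n = 3). miR-99b-5p was read mostly as 22 nt, at 60.9% ± 0.328. For miR-100-5p 20 of 27.5 reads were 22 nt long, so its few reads did not show the length profile of miR-99a-5p.

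miR-125b-5p at its reference start had a broad profile, with 43.7% ± 2.06 of reads at 22 nt, 22.7% ± 1.05 at 20 nt, 18.5% ± 0.513 at 23 nt and 9.31% ± 1.72 at 21 nt (SD, n = 3). In contrast, 90.3% ± 0.484 of the reads of miR-125b-5p+1 had a single length, 21 nt, and so ended at the same base as the 22-nt reads of the reference form. Reads that ended 2 bases earlier, common at the reference start, made up 0.823% ± 0.262 of the later form when counted as exact reads of 19 nt, against 21.5% ± 0.507 for the exact 20-nt reads of the reference form. The same narrowing was seen at miR-125a-5p+1, where 86.0% ± 3.13 of the reads were 23 nt long, compared with 54.3% ± 2.26 of the reference reads at 24 nt.

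**Figure D4:**
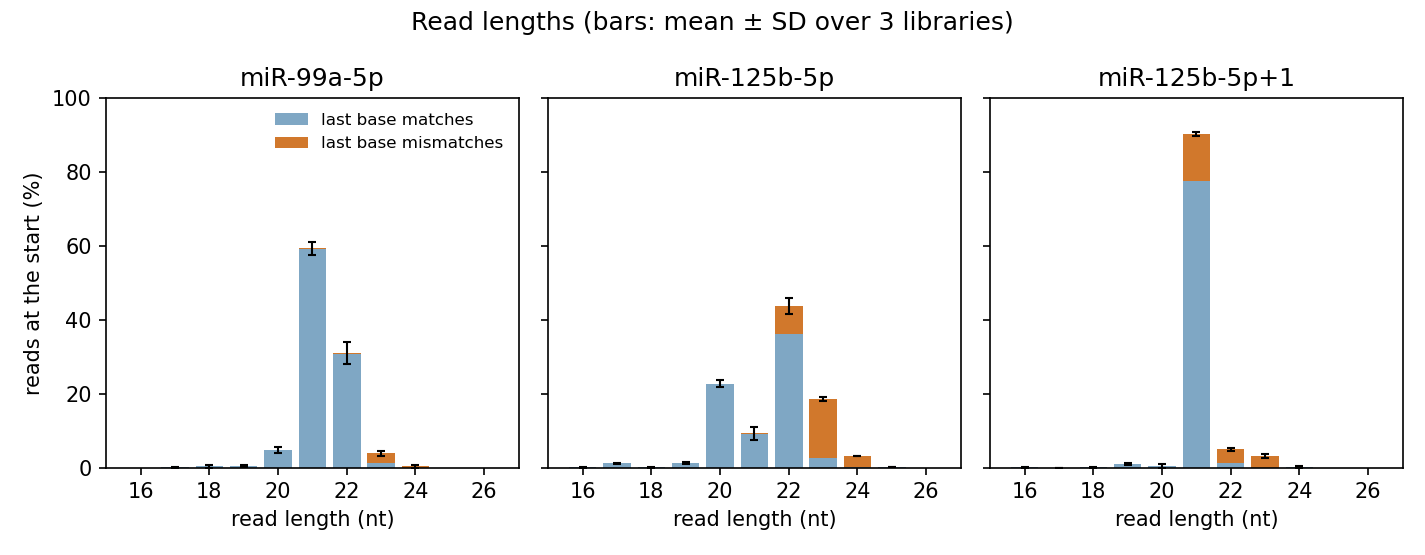
Read lengths (nt) at the starts of miR-99a-5p, miR-125b-5p and miR-125b-5p+1 as share of the reads at the start (%), with bars split by whether the last base matches the genome and error bars showing SD over 3 libraries. miR-99a-5p peaks at 21 nt with 59.3%, miR-125b-5p spreads over 20 to 23 nt, and 90.3% of miR-125b-5p+1 is 21 nt long.

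At the 3′ end, bases that do not match the genome can be added to a miRNA after it has been cut, usually A or U. For miR-125b-5p, 27.2%, 28.0% and 25.9% of the reads had a mismatching last base in replicates 1, 2 and 3, averaging 27.01% ± 1.04 (SD, n = 3). For miR-99a-5p the shares were 3.36%, 3.51% and 3.16%, averaging 3.34% ± 0.175 (SD, n = 3). Their Wilson intervals, from 23.6% to 30.1% and from 1.93% to 5.38%, are separate.

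The last base of miR-125b-5p was most often A, in 17.2% ± 0.599 of reads, and less often G (4.53% ± 0.317) or U (4.03% ± 0.412). The commonest such form, at 14.1% ± 0.360 of the reads, was the full 22-nt sequence followed by A. The paralog miR-125a-5p, with a total of 24.4% ± 0.797, had mostly U (10.3% ± 0.502) and G (7.40% ± 0.456) and little A (1.30% ± 0.109). miR-99b-5p had U in 11.8% ± 0.0601 and A in 3.27% ± 0.0384, whereas miR-99a-5p had A in 2.52% ± 0.363 and U in 0.655% ± 0.430 (SD, n = 3). In both families a mismatching U was less frequent in every library on the member described here than on its chromosome 17 paralog. In the miR-125 family a mismatching A was more frequent. An added base that equals the next genomic base is not recorded as a mismatch. U after 22-nt miR-125b-5p matches Mir125b-1, and A after 23-nt miR-125a-5p matches base 24 of its sequence. The difference within the miR-125 family thus depends in part on the sequences, and by how much was not tested.

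The 2 starts of miR-125b-5p differed in this respect. On miR-125b-5p+1, A was the last base in 4.39% ± 0.410 and G in 10.9% ± 1.31 (SD, n = 3), and the libraries of both starts do not overlap for either base. On miR-125b-2-3p, U was the mismatching last base in 22.8% ± 3.82 of the reads, with 18.4%, 25.0% and 25.0% in replicates 1, 2 and 3. The earlier starts of that arm carried U more often, in 38.8% ± 3.27 for the start 2 bases earlier and 50.6% ± 5.02 for the start 3 bases earlier. The commonest U-ended form at all 3 starts had U in place of the base at position 21 of the reference form (C21U), and numbered 135 reads at the reference start.

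**Figure D5:**
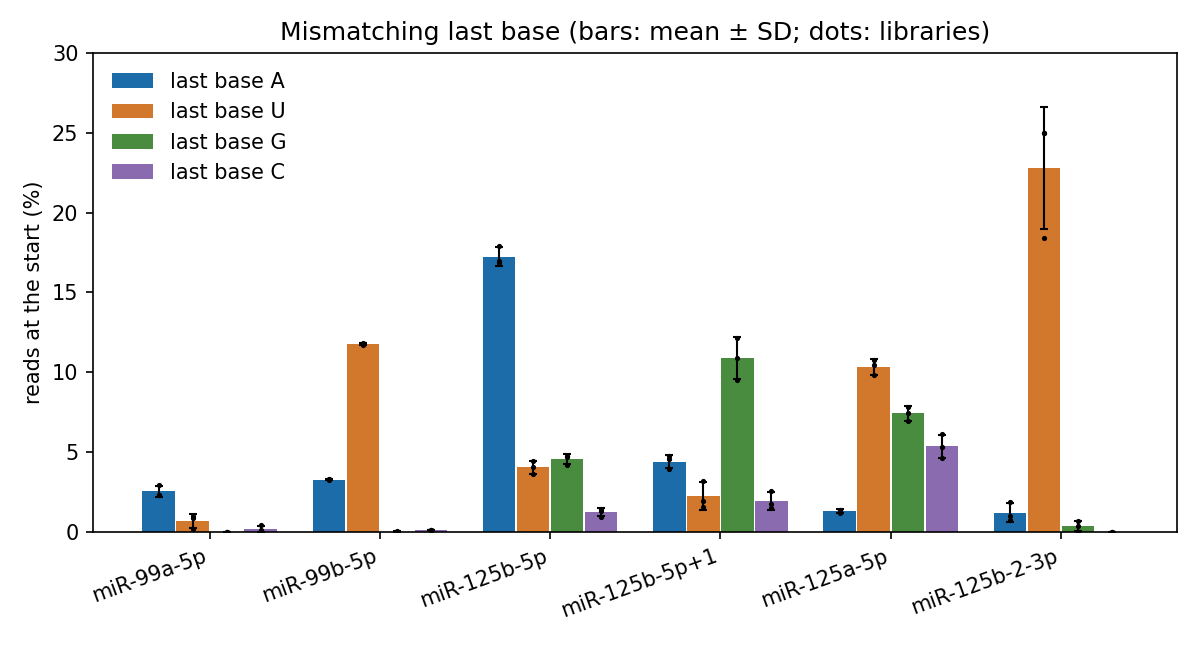
Share of reads at a start (%) whose last base does not match the genome, by that base, for the 6 starts drawn. Bars are means, error bars SD over 3 libraries and dots the libraries. Among these 6, A is highest on miR-125b-5p (17.2%), G on miR-125b-5p+1 (10.9%) and U on miR-125b-2-3p (22.8%), with miR-99a-5p at 2.52% or below for every base.

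Mismatches before the last base of a read were counted, which include those in 3′ tails of several mismatching bases. A read as C made up 73.7% of them in miR-99a-5p, 80.8% in miR-125b-5p+1 and 43.1% in miR-125b-5p. For miR-125b-2-3p it was 1 of 71 at the reference start, but 51 of 54 and 36 of 40 at the starts 2 and 3 bases earlier. Tails enter these counts unequally, for example 73 miR-125b-5p reads with U23A and G24A and 25 miR-125b-2-3p reads with A23U and G24U. The shares of different starts are thus not directly comparable. In miR-99a-5p the change A10C was recorded in 14.6%, 14.4% and 15.4% of reads, a mean of 14.8% ± 0.538 (SD, n = 3), and in miR-99b-5p in 11.9% ± 0.709. In miR-100-5p the same change was seen in 5 reads. The change C13A of miR-99a-5p varied between the libraries, with 4.41%, 0.653% and 4.85%, and in miR-99b-5p it was likewise lowest in replicate 2, with 2.00%, 1.01% and 2.63%. The movement of 1 change in both paralogs with the library is given as measured, and its cause was not tested.

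In miR-125b-5p, A9C was recorded in 3.20% ± 0.254 and A7C in 0.844% ± 0.280 of reads at the reference start (SD, n = 3). At the later start, where that A7 is base 6, A6C was recorded in 13.7%, 10.9% and 12.9% of reads. This base of the hairpin was thus recorded as C more often in the later form in every library. The base recorded as A9C at the reference start went the other way, with A8C in 0.321%, 0% and 0% of the reads at the later start. miR-125a-5p showed the same direction, with A7C in 0.604% ± 0.0421 of reference reads and A6C in 9.55% ± 3.66 of the reads 1 base later. Its A9C share was 2.83% ± 0.116, while A8C at the later start rested on 1 read in replicate 3 (a mean of 0.204%). The cause was not tested.

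The lower level in replicate 3 was not particular to these hairpins. miR-99a-5p and miR-125b-5p in replicate 3 stood at 0.823 and 0.804 of the mean of replicates 1 and 2, and miR-125b-2-3p at 0.940. The median of the 227 arms of the ranked list with at least 100 reads in every library stood at 0.926. At least 1.2-fold lower in replicate 3 were 33 of these arms, or 14.5%, among them 2 of the 3 arms of the members with sufficient reads. miR-99b-5p, at 0.766, was also among them and miR-125a-5p, at 0.859, was not.

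The cell type was checked by marker miRNAs. The Mir375 hairpin, the marker of beta cells, held 365704 ± 19121 RPM, and Mir7a-1 held 260 ± 25.6 RPM (SD, n = 3). The blood markers Mir223, Mir142 and Mir451a and the mesenchymal markers Mir199a-1 and Mir214 were not placed, and their levels were not measured. Placement depends on mismatched reads, and Mir99a, with miR-99a-5p at 53.1 RPM, also stayed below its threshold. Absence of these markers is thus not shown. The hairpin of the endothelial marker Mir126a was placed and held 156, 144 and 127 RPM in all, of which miR-126a-3p at its reference start made up 15.4, 14.8 and 15.9 RPM. Other cells as a source of member reads were not tested.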

How the data were processed

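Small RNA of 3 MIN6 replicates was sequenced on an Illumina HiSeq after TruSeq small RNA preparation. According to the methods, the authors trimmed adaptors with cutAdapt 1.0, mapped perfectly matching reads (lengths from 14 up to 41 nt) with Bowtie 0.12.7, merged their loci into windows with bedtools 2.17.0, and used SHRiMP 2.2.2 to map mismatched reads within those windows. The submitters' processing notes name the build mm9. For each distinct alignment the authors deposited an expected count, unscaled, with reads of several loci divided among them. A mismatched read could be found only near an exact one, and miRNAs with identical copies depend on the division.

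Alignments marked exact end 1 base early, which was corrected. Reads were grouped by 5′-start, and RPM used all mapped reads. Reads within 3 bases of the reference start made up an arm. Hairpins of GENCODE (GRCm38) were placed by sequence at starts with at least 15 reads and a threshold of 20 bits. Tested on simulated data, 82 of 100 planted hairpins were placed, 82 correctly, and 0 random sequences were placed. Of 2201 hairpin sequences 217 were placed, compared with 4 when reversed, and 16 with only a Gm name were left out of the arms compared. RefSeq gave the sequences of 8 of 8 mature arms. The positions of the miR-125b-5p starts were also checked against the expression table of the study. Named miRNAs are both arms of the members, their same-seed paralogs, cluster neighbours, markers, and the 3 arms most alike in level to miR-99a-5p and to miR-125b-5p. The members and lists were chosen with earlier results of these data known, and so was the description of the later start of miR-125b-5p and of mismatches inside reads. Intervals (95%, Wilson or Poisson) and the limit of 3 reads for a count of 0 cover counting error only, since reads carried no molecular identifiers. Python 3.11.15, numpy 2.4.6, pandas 2.3.3, scipy 1.17.1 and matplotlib 3.10.9 were used.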

Additional observations from a re-analysis of the deposited data

How the results depend on the processing

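Of 59 alternatives, 49 moved a value by less than 1 SD between replicates and 10 by more. Relative to mapped reads of 16 to 27 nt instead of all lengths, miR-99a-5p was at 60.4 RPM and miR-125b-5p at 168.0 RPM. With all starts within 3 bases, miR-125b-5p was at 238 RPM and the ratio of miR-125a-5p to it fell to 27.2, since the later start was then included. The planned restriction to whole-number counts gave 47.6 RPM for miR-125b-5p, but an even number of shared reads also divides to a whole number. Restricted to reads without an identical alignment at the other hairpin, an alternative chosen after seeing the data, it was at 3.89 RPM. With exact alignments only, the ratio of miR-99b-5p to miR-99a-5p plus miR-100-5p was 503 and the share of miR-125b-5p reads with a single locus 3.44%. With mismatches in a run at the 3′ end only, the share of mismatched ends was 25.4% for miR-125b-5p and 2.35% for miR-99a-5p. Leaving out 1 replicate at a time changed no value by more than 1 SD. Alternatives for the ratio of the later to the reference start of miR-125b-5p were added after seeing the data and gave 0.592 to 0.639. No paired analysis was possible because the 3 libraries share 1 condition. The depth limits what can be said of miR-100-5p and of both 3p arms with 0 reads. What can be said of the source of miR-125b-5p is limited by the identical 5p arms of its hairpins.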
